A study of Mus musculus with 12 samples.

Results

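The genes described here encode 34 lysosomal proteins, among them Psap, and their RNA was measured in cultured mouse cortical neurons that carried 1 of 5 short hairpin RNAs (shRNAs). The set was drawn up as 34 gene names after Psap had been seen at a low level in the neurons with the control hairpin shControl1, to show whether other lysosomal genes were low there too. All 34 names were found among the 23955 genes of the tables, and all 34 passed the filter on low counts that left 14785 genes for testing. The Psap level in shControl1 is what led to the set, so it is described here without a test wherever shControl1 is one side of a comparison.

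Lysosomes are acidic compartments in which proteins, glycans and lipids are broken down by hydrolases that work at low pH. A proton pump acidifies the lumen, soluble cofactors present lipids to the enzymes, and heavily glycosylated membrane proteins line and protect the limiting membrane. Psap encodes prosaposin, a precursor that is cleaved into saposins, the small cofactors that glucocerebrosidase, galactocerebrosidase, arylsulfatase A and other sphingolipid hydrolases need. Many lysosomal genes carry a CACGTG-containing element near their start and are switched on together by TFEB, a transcription factor that enters the nucleus when mTORC1 is inactive. Inherited loss of many of these genes causes storage disease with neurodegeneration.

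The neurons came from cortices of C57BL/6J mouse embryos at stage E16.5, were infected with lentivirus (pGreenPuro backbone) on the day after plating, and were collected 7 days after dissection. The groups were shAdar1 (against Adar, which encodes the RNA-editing enzyme ADAR1), shAdar2 (against Adarb1, which encodes ADAR2), shZfr (against Zfr, which encodes a zinc finger RNA-binding protein), and the control hairpins shControl2 and shControl1. Each group had 2 biological replicates, and replicate 1 of shAdar2 was the sum of 3 technical libraries of RNA from the same neurons. The study's design set shAdar1 and shAdar2 against shControl1 and set shZfr against shControl2. All groups carried a lentiviral hairpin, and 1 hairpin is named for each target, so what a hairpin does through its target and what it does otherwise cannot be told apart.

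The 12 libraries held 1.58e+07 to 2.97e+07 expected counts each. Levels below are CPM (counts per library put on one scale with TMM factors) unless TPM, which corrects for transcript length, is named. Each hairpin lowered its target: Adar averaged 53.3 ± 2.43 CPM in shAdar1 and 172 ± 27.6 CPM in shControl1, Adarb1 averaged 50.2 ± 2.53 CPM in shAdar2 and 120.4 ± 2.77 CPM in shControl1, and Zfr averaged 173 ± 0.118 CPM in shZfr and 459 ± 52.6 CPM in shControl2 (SD, n = 2 each). The 16 neuronal markers were all measured in every group, with summed levels of 4083 to 8819 TPM, beside 382 to 1753 TPM for 12 astrocyte markers and 0.82 to 37.8 TPM for 12 microglial markers, so the cultures were not pure neurons. The 2 shZfr samples stood apart in how alike they were: their counts differed by a chi-square of 2.28 per gene, more than sampling noise but less than the 21.2 to 57.3 between technical libraries of 1 shAdar2 sample or the 26.2 to 57.8 between replicates of the other groups. Calls of members in shZfr against shControl2 are therefore also given with its 2 samples summed to 1. All 5 groups share an estimate of the spread, so the shZfr samples also enter the adjusted p of the other comparisons. Some calls of members there were lost with the shZfr samples summed, among them Galc in shAdar1 against shControl1. Calls in those comparisons are mostly given without this check and carry that limit.

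Psap was the most abundant of the 34 genes per transcript length in the 8 samples outside shControl1, and ranked 10 and 11 of 34 in the shControl1 samples. It stood at 471 and 498 CPM in shAdar1, 819 and 676 CPM in shAdar2, 270.3 and 270.2 CPM in shZfr, 512 and 451 CPM in shControl2, and 79.5 and 69.8 CPM in shControl1. Both shControl1 samples lay far below every other sample, and the lowest sample elsewhere was 3.40 times the highest shControl1 sample. In bulk RNA, fewer cells of a type and less RNA per cell cannot be told apart. On the TPM scale Psap was 486 and 524 in shAdar1, 931 and 804 in shAdar2, 325 and 324 in shZfr, 639.9 and 563 in shControl2, and 87.7 and 81.1 in shControl1. The abundance-weighted transcript length of Psap was 2643 to 2658 bases over all 10 samples, so the estimated mixture of Psap transcripts had about the same mean length where the gene was low.

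The order of the group means of Psap, from high to low, was shAdar2, shAdar1, shControl2, shZfr and shControl1. The neighbours shAdar1 and shControl2 overlapped: their difference was 0.01 ± 0.12 (log2 ± SE), with a 95% interval of −0.30 to 0.33. The level in shAdar2 exceeded that in shAdar1 by 0.62 ± 0.12 log2 (adjusted p = 0.00394) and that in shControl2 by 0.64 ± 0.12 (adjusted p = 0.00161, edgeR quasi-likelihood test with Benjamini-Hochberg adjustment). Set against shControl1, the same levels were 2.70 log2 higher in shAdar1 and 3.32 higher in shAdar2, and shControl1 was 2.69 lower than shControl2. These 3 values are descriptions of the pattern that led to the set.

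The other 33 genes did not stand at a low level in shControl1 in their sum. Their summed level was 2358 and 2536 TPM in shAdar2, 1818 and 2137 TPM in shAdar1, 2052 and 2046 TPM in shZfr, 2198 and 2250 TPM in shControl2, and 2360 and 2424 TPM in shControl1. The shControl1 sums thus lay above those of shAdar1, shZfr and shControl2 and inside the range of shAdar2. Abundant genes weigh most in these sums: in shControl1, Lamp1 averaged 310 TPM, Atp6ap1 284 TPM and Laptm4a 268 TPM. Psap made up 3.58% and 3.23% of the summed TPM of the 34 genes in shControl1, and 13.7% to 28.3% in the other 8 samples.

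**Figure D1:**
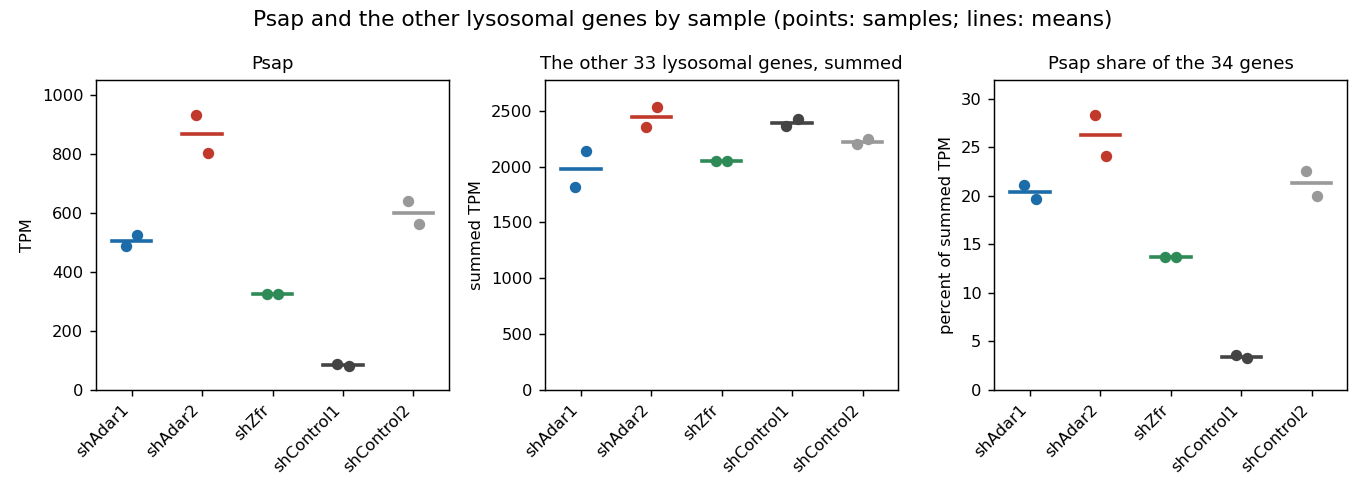
Points are samples and lines are the means of 2 samples: Psap in TPM (left), the summed TPM of the other 33 lysosomal genes (middle) and the percent of the summed TPM of all 34 genes taken by Psap (right). The shControl1 samples have 87.7 and 81.1 TPM of Psap and 2360 and 2424 TPM of the other genes, so the low level is seen for Psap and not for the sum of the rest.

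Only Galc and Man2b1 of the other 33 genes had both shControl1 samples below all 8 other samples, which is 6.06% of these genes, where 8.21% of all tested genes did so. Galc encodes galactocerebrosidase, the enzyme that degrades galactosylceramide and that uses a saposin, and Man2b1 encodes lysosomal alpha-mannosidase. Galc had 23.4 and 32.3 CPM in shAdar1, 23.3 and 39.5 CPM in shAdar2, 37.5 and 38.9 CPM in shZfr, 28.9 and 36.2 CPM in shControl2, and 14.3 and 14.1 CPM in shControl1. Man2b1 had 19.0 and 23.7 CPM in shAdar1, 34.7 and 30.5 CPM in shAdar2, 19.2 and 18.2 CPM in shZfr, 22.6 and 21.1 CPM in shControl2, and 15.7 and 17.6 CPM in shControl1. For Man2b1 the gap between shControl1 and the nearest sample was small, and on the TPM scale Galc alone kept this pattern. At the other end, Ctsb, Scarb2 and Laptm4a had both shControl1 samples above all 8 others, which is 9.09% of the 33 genes beside 9.04% of all tested genes. By group means, shControl1 was the lowest of the 5 groups for 5 of the 33 genes (17.4% of all tested genes) and the highest for 6 (17.7%), and shControl2 was the lowest for 12 (23.7%).

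**Figure D2:**
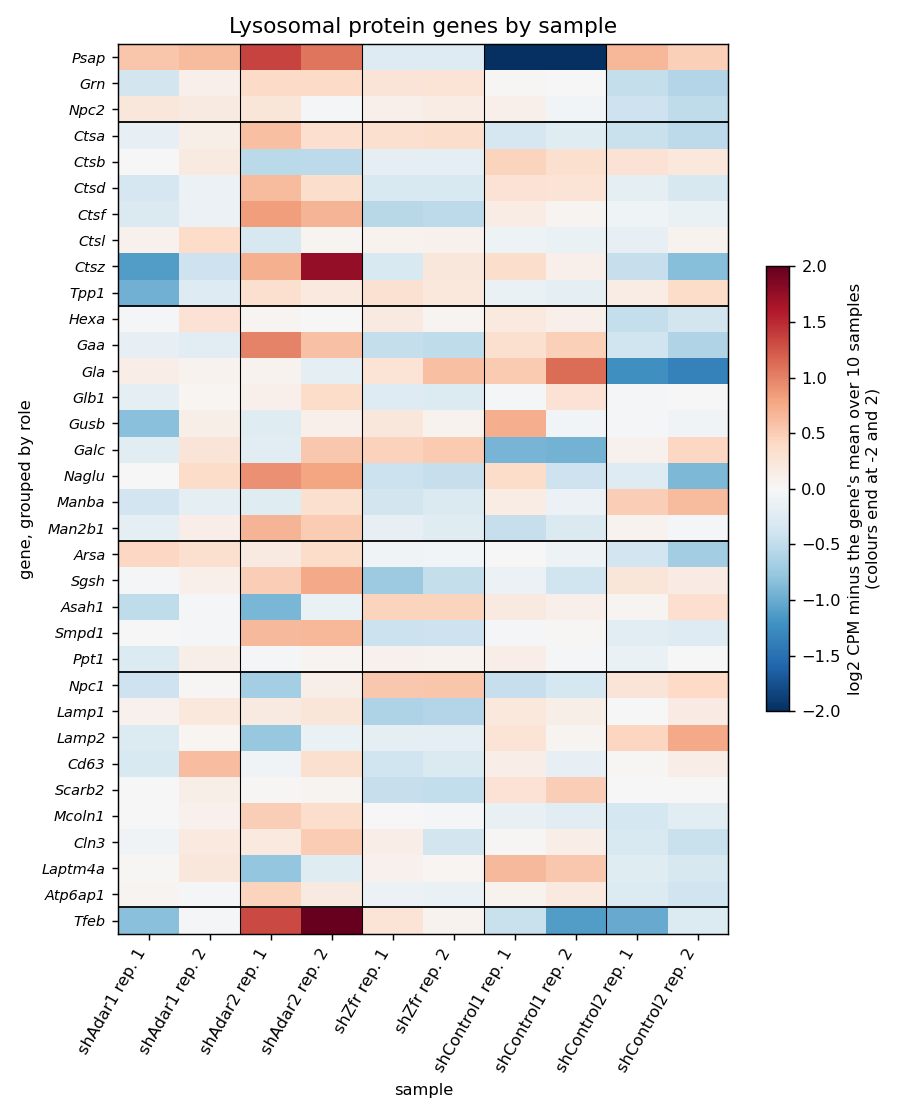
Rows are the 34 genes grouped by role (soluble cofactors, proteases, glycosidases, other hydrolases, membrane proteins, and Tfeb), columns are the 10 samples, and colour is log2 CPM minus the gene's mean over the samples. Psap is dark blue in both shControl1 samples, while the other rows show no common blue column there, and Tfeb and Ctsz are darkest red in shAdar2 replicate 2.

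Between the 2 control hairpins, more of the other lysosomal genes were higher in shControl1 than lower. Of the 33 genes, 10 rose in shControl1 relative to shControl2, where 23.2% of all tested genes were called higher, and 2 fell, where 19.9% were called lower (edgeR quasi-likelihood test, Benjamini-Hochberg adjusted p under 0.05 over all tested genes). The median log2 difference of the 33 genes was 0.20, beside 0.05 for all tested genes, and their values ran from −1.20 to 2.13 on the log2 scale. The share called higher is 30.3% of the 33 genes and the share called lower is 6.06%. Without any 1 of the 4 samples both counts were smaller. Such a fit has 1 sample in a group, and the share of all tested genes called in it is not given here. The drop can therefore not be read as a trait of these genes.

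The glycosidases held both extremes of that comparison. Gla, which encodes alpha-galactosidase A, the enzyme missing in Fabry disease, had 11.0 and 16.6 CPM in shControl1 and 3.29 and 3.01 CPM in shControl2. Both shControl1 samples lay above both shControl2 samples, and the difference was 2.13 ± 0.24 log2 (adjusted p = 0.000179, edgeR). Gaa, acid alpha-glucosidase, which degrades lysosomal glycogen, had 99.8 and 112 CPM in shControl1 and 61.1 and 52.8 CPM in shControl2, a difference of 0.89 ± 0.14 (adjusted p = 0.000928, edgeR). Hexa, the alpha subunit of beta-hexosaminidase A, had 21.8 and 20.3 CPM in shControl1 and 13.6 and 14.7 CPM in shControl2, a difference of 0.57 ± 0.15 (adjusted p = 0.0129, edgeR). Galc, with the levels given above, differed by −1.20 ± 0.25 on the log2 scale in shControl1 (adjusted p = 0.00403, edgeR). Arsa, the sulfatide-degrading arylsulfatase A, which also uses a saposin, rose by 0.48 ± 0.15, so the enzymes that use saposins did not move in 1 direction. Smpd1, acid sphingomyelinase, and Asah1, acid ceramidase, were not called in this comparison.

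Among cofactors and proteases, Grn encodes progranulin, a secreted glycoprotein that travels to the lysosome and binds prosaposin. Grn had 29.2 and 28.7 CPM in shControl1 and 20.7 and 19.3 CPM in shControl2, and so ran opposite to Psap, with a difference of 0.54 ± 0.15 log2 (adjusted p = 0.0186, edgeR). Npc2, a carrier of cholesterol in the lumen, rose by 0.49 ± 0.12, and Ctsd, the aspartic protease cathepsin D, which cleaves prosaposin, rose by 0.54 ± 0.12. Of the 7 proteases 0 fell, by edgeR at an adjusted or unadjusted p under 0.05 and by DESeq2. Among membrane proteins, Laptm4a had 193 and 179.9 CPM in shControl1 and 104 and 98.9 CPM in shControl2, a difference of 0.88 ± 0.16 (adjusted p = 0.00181, edgeR). Scarb2, the receptor that carries glucocerebrosidase to the lysosome, rose by 0.39 ± 0.10, and Atp6ap1, an accessory subunit of the proton pump, rose by 0.47 ± 0.11. Npc1, the membrane protein that exports cholesterol, had 57.6 and 62.1 CPM in shControl1 and 95.2 and 105 CPM in shControl2, a difference of −0.74 ± 0.23 (adjusted p = 0.0259, edgeR).

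The calls of Gla, Gaa, Galc and Laptm4a between the control hairpins held when any 1 of the 4 samples was left out. Without each of the 4 samples in turn, the adjusted p (edgeR) was 0.0641 to 0.127 for Grn and 0.057 to 0.119 for Npc1, so these calls did not hold, and for Hexa it was 0.0898 and 0.0562 without shControl2 replicate 1 and 2 and 0.0605 without shControl1 replicate 1. Markers of astrocytes moved in the same comparison: 9 of 11 tested astrocyte markers were lower in shControl1, with summed levels of 438 to 626 TPM in shControl1 and 1468 to 1753 TPM in shControl2, and none of the 12 was at 0 in both samples of either group. Of 16 neuronal markers 2 were higher and 8 lower in shControl1, and of 11 markers of dividing progenitors 6 were lower. Of 7 tested markers of the oligodendrocyte lineage, the myelin-forming cells of the brain, 5 were lower in shControl1, with a median log2 difference of −2.03. The 9 listed summed to 79.4 to 123 TPM in shControl1 and 412 to 437 TPM in shControl2, and 1 of them was at 0 in both shControl2 samples. The part of these markers in the lysosomal results was not tested.

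**Figure D3:**
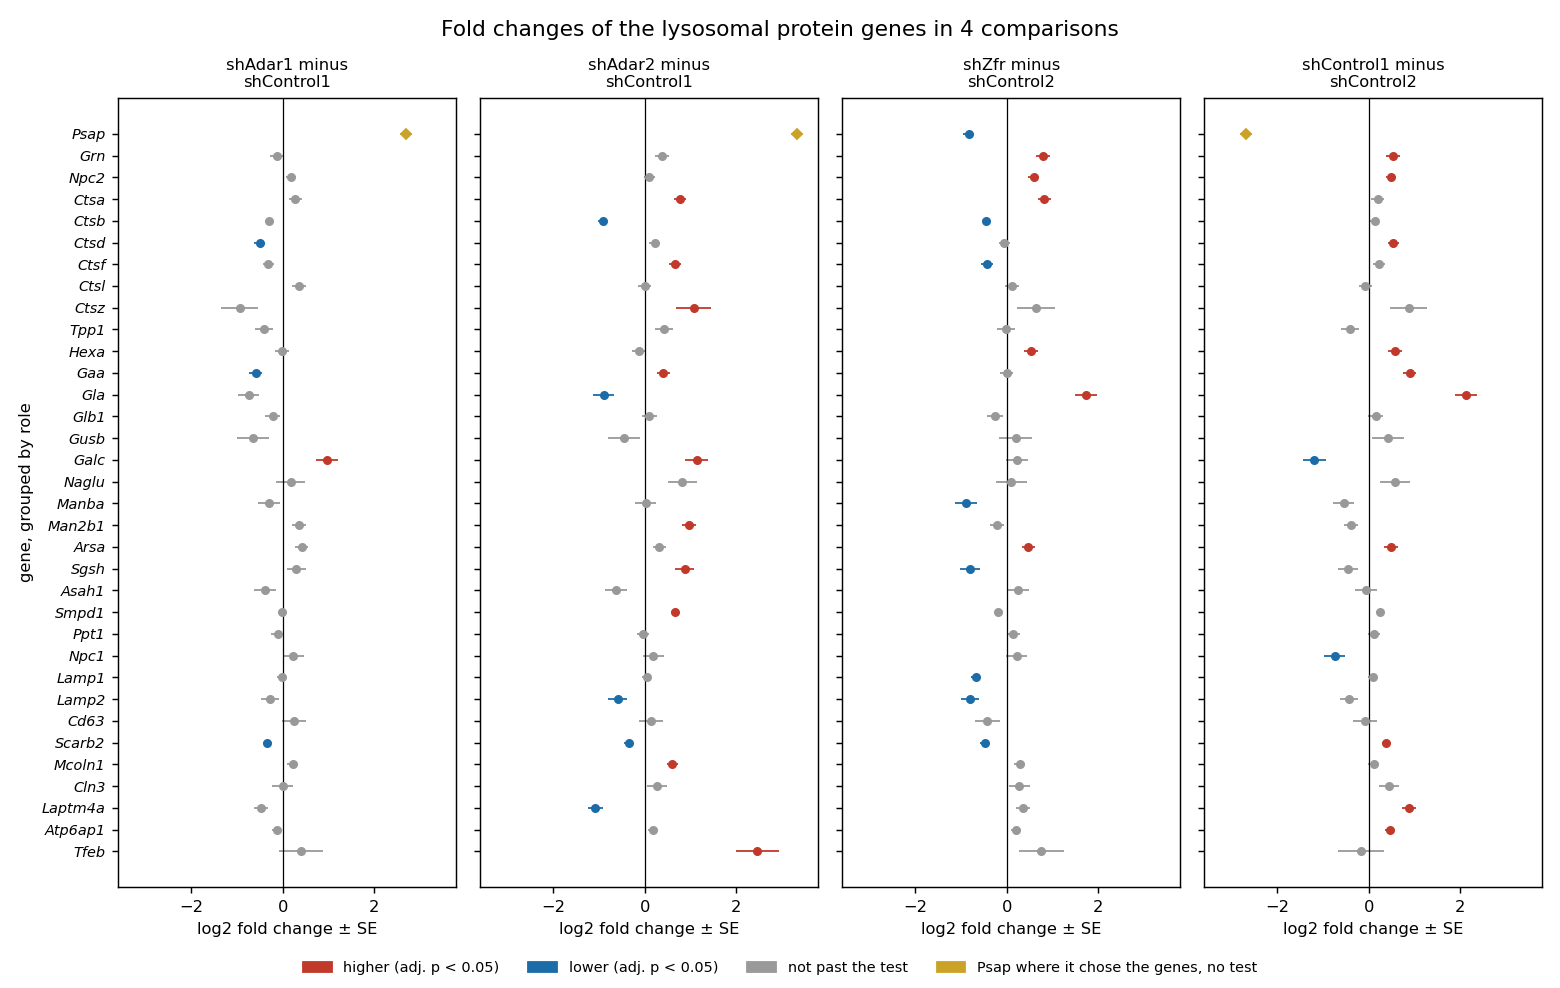
Log2 fold changes with their standard errors for the 34 genes in 4 comparisons (edgeR, 2 samples per group), coloured by direction where the adjusted p is under 0.05. Psap is drawn as a diamond without a test where shControl1 is compared, and lies apart from the other 33 genes in all 3 of those panels.

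With shAdar1, few of the other lysosomal genes moved against shControl1. Of the 33 genes 1 rose (3.03%, where 9.33% of all tested genes were called higher) and 3 fell (9.09%, where 6.9% were called lower), and their median log2 change was −0.11, beside 0.02 for all tested genes. Galc rose to 23.4 and 32.3 CPM in shAdar1, against 14.3 and 14.1 CPM in shControl1, a change of 0.97 ± 0.25 (adjusted p = 0.0283, edgeR). Gaa fell to 71.4 and 69.1 CPM in shAdar1, against 99.8 and 112 CPM in shControl1, a change of −0.59 ± 0.14 (adjusted p = 0.0207, edgeR). The groups did not overlap for either gene. The Galc call was lost with the 2 shZfr samples summed to 1, where its change was 0.95 log2. Ctsd had 95.5 and 111 CPM in shAdar1 and 147 and 146 CPM in shControl1 (−0.51 ± 0.12, adjusted p = 0.0207, edgeR), and Scarb2 had 105 and 114 CPM in shAdar1 and 128 and 148 CPM in shControl1 (−0.33 ± 0.10, adjusted p = 0.0474, edgeR).

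All 4 of these changes had the other sign against shControl2: −0.22 for Galc, 0.30 for Gaa, 0.0302 for Ctsd and 0.0532 for Scarb2 on the log2 scale. None of the 4 was called there (edgeR). None of the 33 genes was called in the same direction in shAdar1 against each of the 2 control hairpins, where 1.85% of all tested genes were called higher and 1.99% lower in both. At an unadjusted p under 0.05 (edgeR) 1 of the 33 was higher against both hairpins and 0 were lower, and DESeq2 called 0 in either direction. Each of the 4 calls also depended on single samples, in fits that leave 1 sample in a group. Without shControl1 replicate 2 the adjusted p (edgeR) was 0.146 for Galc, 0.134 for Gaa, 0.0927 for Ctsd and 0.264 for Scarb2. Without shAdar1 replicate 1 it was 0.074 for Gaa, 0.113 for Ctsd and 0.18 for Scarb2, without shAdar1 replicate 2 it was 0.172 for Galc, 0.11 for Gaa and 0.0981 for Scarb2, and without shControl1 replicate 1 it was 0.103 for Galc and 0.0767 for Ctsd. Grn had 22.4 and 31.0 CPM in shAdar1 and 29.2 and 28.7 CPM in shControl1, and Tfeb had 0.592 and 1.03 CPM in shAdar1 and 0.769 and 0.483 CPM in shControl1, and the groups overlapped for both genes. Of 11 tested astrocyte markers 5 were higher in shAdar1 against shControl1, with summed levels of 691 and 1172 TPM in shAdar1 and 438 to 626 TPM in shControl1, and 1 of the 12 was at 0 in both shAdar1 samples. Of 16 neuronal markers 4 were higher and 1 lower. The 11 progenitor markers summed to 2777 and 6127 TPM in shAdar1 and 1873 to 2386 TPM in shControl1, so the shAdar1 replicates lay far apart, and 1 of them was called higher. The part of these markers in the lysosomal results was not tested.

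With shAdar2, the lysosomal genes moved in both directions. Of the 33 genes 10 rose against shControl1 (30.3%, where 23.2% of all tested genes were called higher) and 5 fell (15.2%, where 23.2% were called lower), with a median log2 change of 0.18 beside 0.04 for all tested genes. The genes that rose were the proteases Ctsa, Ctsf and Ctsz, the glycosidases Gaa, Galc and Man2b1, the hydrolases Sgsh and Smpd1, the channel gene Mcoln1, and Tfeb. Those that fell were Ctsb, Gla, Lamp2, Scarb2 and Laptm4a, of which the last 3 encode membrane proteins. Fewer were called lower without shControl1 replicate 2, in a fit with 1 shControl1 sample whose share of all tested genes is not given here. Both shAdar2 samples were above all 8 other samples for 11 of the 33 genes, or 33.3%, where 18.8% of all tested genes were, and below all 8 for 1, Ctsb, or 3.03%, where 17.8% were.

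Tfeb, which encodes the transcription factor of lysosomal genes, had 2.63 and 4.36 CPM in shAdar2 and 0.769 and 0.483 CPM in shControl1. Both shAdar2 samples were higher than every other sample of the series, and the change was 2.46 ± 0.47 log2 (adjusted p = 0.00236, edgeR). The level stayed low, at 3.49 and 5.98 TPM in shAdar2. Grn, at 37.4 and 37.7 CPM in shAdar2 and 29.2 and 28.7 CPM in shControl1, did not overlap but missed the threshold (0.37 ± 0.15, adjusted p = 0.0669, edgeR). Against shControl2 the difference of Grn was 0.91 (adjusted p = 0.00074, edgeR).

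Among the proteases, Ctsa encodes cathepsin A, the protective protein of lysosomal beta-galactosidase and neuraminidase. Ctsa had 53.2 and 44.2 CPM in shAdar2 and 27.7 and 29.7 CPM in shControl1 (0.77 ± 0.14, adjusted p = 0.00166, edgeR). Ctsf, the cysteine protease cathepsin F, had 35.7 and 32.2 CPM in shAdar2 and 22.3 and 20.9 CPM in shControl1 (0.66 ± 0.13, adjusted p = 0.00268, edgeR). Ctsb, the cysteine protease cathepsin B, went the other way, with 98.5 and 99.9 CPM in shAdar2 and 196 and 179.9 CPM in shControl1 (−0.92 ± 0.10, adjusted p = 0.000122, edgeR). The groups did not overlap for these 3 genes. Ctsz, cathepsin Z, had 5.68 and 11.7 CPM in shAdar2 and 4.42 and 3.74 CPM in shControl1 (1.07 ± 0.38, adjusted p = 0.0428, edgeR). Replicate 2 of shAdar2 carried most of the Ctsz change, and without it the change was 0.48 (adjusted p = 0.239, edgeR); without shControl1 replicate 1 or 2 the adjusted p was 0.109 and 0.187.

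Among the other hydrolases, Man2b1 had 34.7 and 30.5 CPM in shAdar2 and 15.7 and 17.6 CPM in shControl1 (0.97 ± 0.15, adjusted p = 0.000798, edgeR). Sgsh, the heparan sulfate sulfatase missing in Sanfilippo syndrome type A, had 7.78 and 9.38 CPM in shAdar2 and 5.11 and 4.22 CPM in shControl1 (0.87 ± 0.21, adjusted p = 0.00751, edgeR). Galc had 23.3 and 39.5 CPM in shAdar2 and 14.3 and 14.1 CPM in shControl1 (1.13 ± 0.25, adjusted p = 0.00488, edgeR). The groups did not overlap for these genes, although the Galc samples of shAdar2 were far apart. Smpd1 rose by 0.65 ± 0.09 and Gaa by 0.41 ± 0.14. Gla fell to 8.04 and 6.71 CPM in shAdar2, against 11.0 and 16.6 CPM in shControl1 (−0.90 ± 0.23, adjusted p = 0.00993, edgeR), but shControl1 was itself the highest group for Gla, and against shControl2 the difference was 1.23. Without shControl1 replicate 2 the adjusted p (edgeR) was 0.0604 for Sgsh, 0.0905 for Gla and 0.106 for Scarb2.

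Among the membrane proteins, Laptm4a had 72.3 and 105 CPM in shAdar2 and 193 and 179.9 CPM in shControl1 (−1.08 ± 0.16, adjusted p = 0.0006, edgeR). Lamp2, 1 of the major glycoproteins of the lysosomal membrane, had 52.2 and 80.5 CPM in shAdar2 and 107 and 92.1 CPM in shControl1 (−0.60 ± 0.20, adjusted p = 0.0362, edgeR). All shAdar2 samples lay below the shControl1 samples for both genes. The Lamp2 call was lost without shAdar2 replicate 1 (−0.32, adjusted p = 0.164, edgeR) and without shControl1 replicate 1 or 2 (adjusted p = 0.169 and 0.0597). Mcoln1 encodes the lysosomal calcium channel TRPML1, which acts upstream of TFEB. Mcoln1 had 36.5 and 33.1 CPM in shAdar2 and 23.4 and 22.5 CPM in shControl1, and rose by 0.60 ± 0.12 (adjusted p = 0.00295, edgeR). Lamp1, the other major membrane glycoprotein, had 231 and 244 CPM in shAdar2 and 237 and 223 CPM in shControl1, with overlapping groups.

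Set against each of the 2 control hairpins, 8 of the 33 genes were higher in shAdar2 (24.2%, where 15.2% of all tested genes were): Ctsa, Ctsf, Ctsz, Gaa, Man2b1, Smpd1, Mcoln1 and Tfeb. Ctsb and Lamp2 were lower against both (6.06%, where 15.9% were). Ctsa, Ctsb, Ctsf, Man2b1, Smpd1, Mcoln1 and Tfeb kept their calls in all alternatives tried, including the other control hairpin and each sample left out. The 2 knockdowns were also set against each other, which does not involve a control: 11 of the 33 genes were higher in shAdar2 than in shAdar1 (17% of all tested genes were) and 2 were lower (21% were). The largest of those differences among genes above 5 CPM were 2.02 ± 0.40 for Ctsz, 1.00 ± 0.14 for Gaa and 0.97 ± 0.13 for Ctsf on the log2 scale.

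Microglia, the macrophages of the brain, are rich in lysosomal proteins. Microglial markers were called higher in shAdar2 against shControl1 for 4 of 8 tested genes, and the 12 markers summed to 24.4 and 37.8 TPM in shAdar2 and to 3.31 and 6.69 TPM in shControl1, with none of the 12 at 0 in both samples of either group. The 3 technical libraries of shAdar2 replicate 1 ranged from 9.87 to 57.8 TPM for this sum. Fcer1g, an Fc receptor subunit, averaged 0.949 ± 0.047 CPM in shAdar2 and 0.0675 ± 0.0411 CPM in shControl1. Interferon-stimulated genes were called higher for 18 of 19 tested, with summed levels of 225 and 750.2 TPM in shAdar2 and 36.9 and 37.3 TPM in shControl1. The low-count filter keeps a gene that reaches its limit in a single group. Genes near 0 outside shAdar2 could therefore be tested because of shAdar2 alone. Both counts, of microglial and of interferon-stimulated genes, are thus partly set by the filter and are descriptions only. Neuronal markers were higher for 4 and lower for 6 of 16, and their sum was 4083 to 4288 TPM in shAdar2 and 6024 to 6184 TPM in shControl1. The part of these markers in the lysosomal results was not tested.

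**Figure D4:**
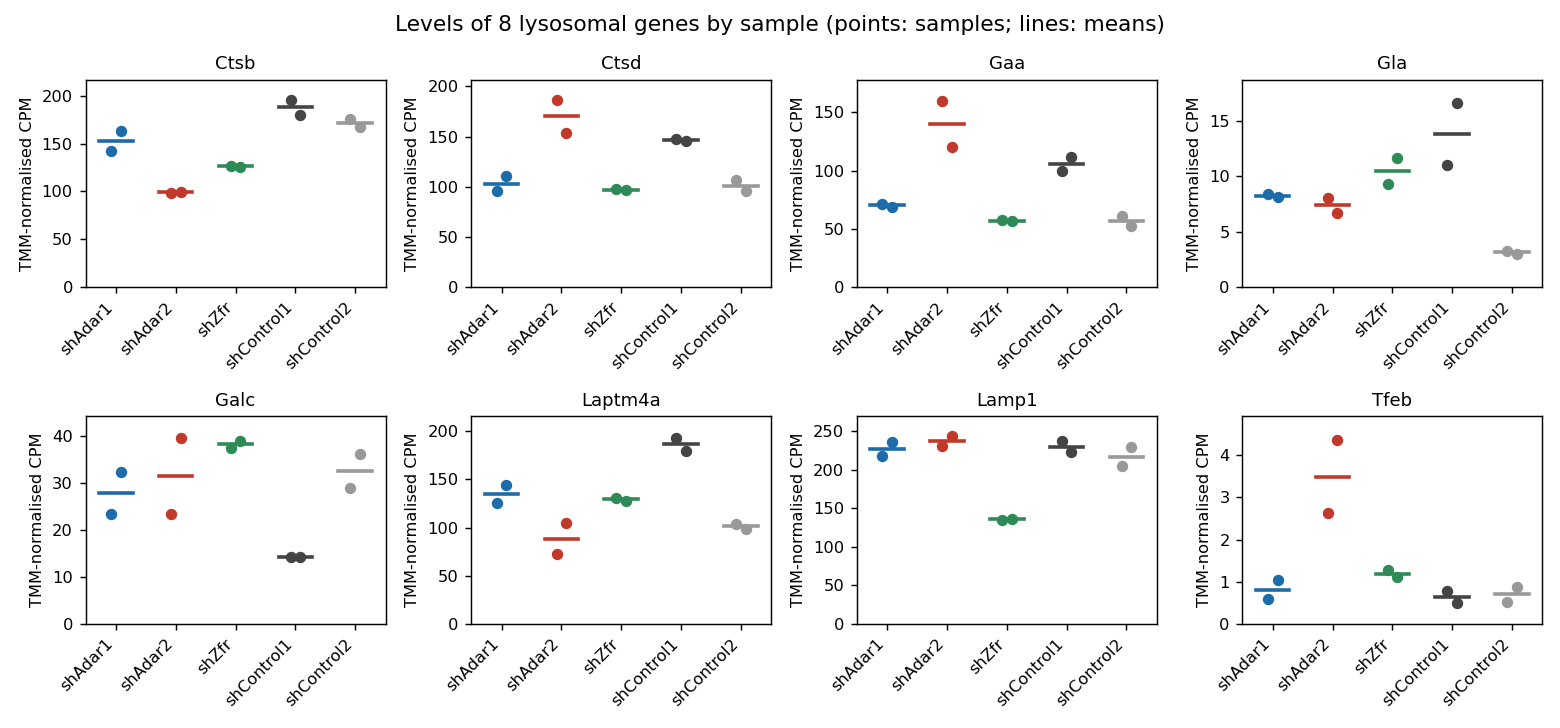
TMM-normalised CPM of 8 lysosomal genes in each sample (points) with the mean of the 2 samples (lines), on axes that start at 0. Galc is lowest and Laptm4a highest in shControl1, Gla is lowest in shControl2 at 3.29 and 3.01 CPM, Lamp1 is lowest in shZfr, and Tfeb is highest in shAdar2.

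With shZfr, Psap itself fell against shControl2, the control of the study's design. Psap had 270.3 and 270.2 CPM in shZfr and 512 and 451 CPM in shControl2, which is 56.2% of the level in shControl2 (−0.83 ± 0.12 log2, adjusted p = 0.00112, edgeR). With the 2 shZfr samples summed to 1 the change was −0.82 (adjusted p = 0.0194, edgeR). Against shControl1 the sign was the other way, 1.86, since shControl1 was the lowest group. Of the other 33 genes, 6 rose in shZfr (18.2%, where 16.7% of all tested genes were called higher) and 7 fell (21.2%, where 14.1% were called lower), with a median log2 change of 0.15 beside 0.05. With the shZfr samples summed to 1, fewer of these genes were called higher, and of all 34 Psap and Lamp1 alone were called lower. Fewer of all tested genes were called in either direction in that fit too, with the shares given below. Without any 1 of the 4 samples, fewer of the 34 were called higher and fewer lower than with every sample. Such a fit has 1 sample in a group, and the share of all tested genes called in it is not given here.

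The other cofactors went opposite to Psap in shZfr against shControl2, which was the lowest of the 5 groups for both. Against shControl1, Grn differed by 0.26 and Npc2 by 0.10, with the same sign as Psap. Neither was called there (adjusted p = 0.189 and 0.505, edgeR). Grn had 34.4 and 35.0 CPM in shZfr and 20.7 and 19.3 CPM in shControl2 (0.79 ± 0.15, adjusted p = 0.00444, edgeR), and Npc2 had 54.4 and 55.7 CPM in shZfr and 37.7 and 35.5 CPM in shControl2 (0.59 ± 0.12, adjusted p = 0.0056, edgeR). With the shZfr samples summed to 1 the adjusted p (edgeR) was 0.0342 for Grn and 0.0475 for Npc2. Without shZfr replicate 2 or shControl2 replicate 2 it was 0.0625 and 0.0593 for Npc2. Ctsa had 44.1 and 44.6 CPM in shZfr and 25.8 and 24.3 CPM in shControl2 (0.82 ± 0.14, adjusted p = 0.00208, edgeR), and was the 1 gene of the 33 called higher in shZfr against each of the control hairpins (3.03%, where 7.95% of all tested genes were). Ctsa was still called against both hairpins with the shZfr samples summed to 1 (adjusted p = 0.0216 against shControl2, edgeR). Arsa rose by 0.47 ± 0.15 log2 in shZfr but was not called with those samples summed (adjusted p = 0.141, edgeR).

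The glycosidases again moved apart. Gla had 9.32 and 11.6 CPM in shZfr and 3.29 and 3.01 CPM in shControl2 (1.73 ± 0.24, adjusted p = 0.000883, edgeR), and this call held with the shZfr samples summed to 1 and with each sample left out. Against shControl1 the Gla difference was −0.40. Hexa had 21.5 and 19.7 CPM in shZfr and 13.6 and 14.7 CPM in shControl2 (0.54 ± 0.15, adjusted p = 0.0237, edgeR), and Manba, lysosomal beta-mannosidase, had 4.55 and 4.83 CPM in shZfr and 8.25 and 9.13 CPM in shControl2 (−0.89 ± 0.24, adjusted p = 0.0189, edgeR). Sgsh had 3.34 and 3.97 CPM in shZfr and 6.58 and 6.21 CPM in shControl2 (−0.81 ± 0.22, adjusted p = 0.02, edgeR). The groups did not overlap for these genes, yet the calls of Hexa, Manba and Sgsh were lost with the shZfr samples summed to 1 (adjusted p = 0.11, 0.105 and 0.105, edgeR) and without any 1 of the 4 samples, with ranges of 0.081 to 0.166 for Hexa, 0.0573 to 0.122 for Manba and 0.0735 to 0.159 for Sgsh.

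Of the 9 membrane proteins 3 were called lower in shZfr (Lamp1, Lamp2 and Scarb2), and the median change of the 9 was 0.21 log2. Lamp1 had 134 and 137 CPM in shZfr and 205 and 229 CPM in shControl2 (−0.68 ± 0.10, adjusted p = 0.000948, edgeR). The shZfr samples were lower for Lamp1 than all 8 other samples of the series, and the call held in all alternatives tried. Lamp2 had 77.1 and 77.7 CPM in shZfr and 119 and 151 CPM in shControl2 (−0.80 ± 0.20, adjusted p = 0.0152, edgeR), but was not called with the shZfr samples summed to 1 (adjusted p = 0.0848, edgeR), without shZfr replicate 1 or 2 (0.0864 and 0.0825) or without shControl2 replicate 2 (0.11). Scarb2 fell by 0.48 ± 0.10, Ctsb by 0.44 ± 0.10 and Ctsf by 0.43 ± 0.13 on the log2 scale. These 3 calls were lost with the shZfr samples summed to 1, with an adjusted p (edgeR) of 0.061 for Scarb2, 0.0758 for Ctsb and 0.172 for Ctsf. Ctsb, Ctsf, Lamp1 and Scarb2 were called lower in shZfr against each of the 2 control hairpins (12.1%, where 7.85% of all tested genes were). Of these Lamp1 alone was so called with the shZfr samples summed to 1, where fewer of all tested genes were too. Tfeb had 1.27 and 1.11 CPM in shZfr and 0.525 and 0.868 CPM in shControl2 and was not called (0.76 ± 0.49, adjusted p = 0.274, edgeR). Astrocyte markers were higher for 1 and lower for 6 of 11 in shZfr, with summed levels of 727 to 757 TPM in shZfr and 1468 to 1753 TPM in shControl2, and 1 of the 12 was at 0 in both shZfr samples. Of 8 microglial markers 0 were called in shZfr by edgeR, at an adjusted or unadjusted p under 0.05, or by DESeq2. The 12 listed summed to 3.93 and 4.02 TPM in shZfr and 2.82 and 1.81 TPM in shControl2, and 4 were at 0 in both shControl2 samples. At levels this near 0 the absence of calls cannot show that these markers did not change. The part of the astrocyte and microglial markers in the lysosomal results was not tested.

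Set against shControl2 in place of shControl1, shAdar1 had 6 of the 33 members other than Psap higher (18.2%, where 19.3% of all tested genes were called higher) and 3 lower (9.09%, where 13.9% were called lower; edgeR, adjusted p under 0.05). Arsa averaged 27.6 ± 1.25 CPM in shAdar1 and 14.8 ± 2.24 CPM in shControl2, a difference of 0.90 ± 0.15 log2 (SE; adjusted p = 0.00189, edgeR). Gla, which shControl2 held at the lowest level of the 5 groups, was higher by 1.39 ± 0.24, and Npc2, Ctsa, Hexa and Atp6ap1 were higher too. Tpp1, the serine protease missing in late infantile neuronal ceroid lipofuscinosis, averaged 20.8 ± 6.93 CPM in shAdar1 and 37.0 ± 4.13 CPM in shControl2 (−0.83 ± 0.20, adjusted p = 0.0112, edgeR), and Manba and Lamp2 were lower as well.

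Set against shControl2, shAdar2 had 17 of the 33 members higher (51.5%, where 32.2% of all tested genes were) and 3 lower (9.09%, where 27.3% were), with a median log2 difference of 0.44 beside 0.09 for all tested genes. Against shControl1, shZfr had 3 higher (9.09%, where 22.8% were) and 8 lower (24.2%, where 23.4% were). These comparisons share samples with those of the study's design and are not independent of them.

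Genes of neighbouring lysosomal pathways were read from lists that leave out the 34. Their counts stand beside the shares of all tested genes given above: 9.33% higher and 6.9% lower in shAdar1, 23.2% and 23.2% in shAdar2, 16.7% and 14.1% in shZfr, and 23.2% and 19.9% in shControl1 against shControl2. The subunits of the V-ATPase, the proton pump, showed the clearest difference between the control hairpins: 12 of 16 rose in shControl1 against shControl2 and 0 fell (edgeR; 1 was lower at an unadjusted p under 0.05, and 0 by DESeq2), with a median log2 difference of 0.77. Atp6v1e1 averaged 137 ± 9.61 CPM in shControl1 and 47.8 ± 0.034 CPM in shControl2 (SD, n = 2 each), a difference of 1.52 ± 0.13 log2 (SE). The pump genes fell in part against shControl1, with 4 of 16 lower in shAdar1 and 7 lower and 2 higher in shAdar2, and 6 of 16 rose in shZfr against shControl2. Atp6v1a, the catalytic subunit, changed by −1.31 ± 0.11 in shAdar2, and Atp6v1c1 by −0.70 ± 0.10 in shAdar1 and −1.01 ± 0.10 in shAdar2. Against the other control hairpin, 10 of 16 were higher and 1 lower in shAdar1, where 19.3% and 13.9% of all tested genes were. In shAdar2 10 were higher and 2 lower, where 32.2% and 27.3% were, and in shZfr 9 were lower, where 23.4% were. The prevailing direction of the called pump genes thus differed between the control hairpins. Whether the same genes changed direction was not tested. With the shZfr samples summed to 1, 3 of 16 were higher in shZfr against shControl2.

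Of 28 other lysosomal hydrolases tested, 5 were higher (17.9%) and 3 lower (10.7%) in shControl1 against shControl2, both below the shares of all tested genes. Ids, the iduronate sulfatase missing in Hunter syndrome, was lower by 1.45 ± 0.12 log2. Against shControl1, Ids was higher in shAdar1 (0.78 ± 0.12), and Neu1, the lysosomal neuraminidase, was higher in shAdar2 (1.18 ± 0.15). The counts against the study's controls were 3 higher and 3 lower of 28 in shAdar1, 9 higher and 2 lower in shAdar2, and 2 higher and 4 lower in shZfr. Gm2a, which encodes the GM2 activator, a cofactor of ganglioside breakdown that acts like the saposins, averaged 9.05 CPM in shZfr and 57.3 CPM in shControl2 (−2.67 ± 0.19, adjusted p = 4.34e-05, edgeR).

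Of 19 other lysosomal membrane proteins, 3 were higher and 7 lower in shControl1 against shControl2, 1 was higher and 0 lower in shAdar1 (1 was lower at an unadjusted p under 0.05 by edgeR, and 1 by DESeq2), 9 were higher and 4 lower in shAdar2, and 4 were higher and 3 lower in shZfr. Tpcn1, a lysosomal cation channel, was higher by 0.77 ± 0.15 in shAdar1 and 1.17 ± 0.15 in shAdar2 against shControl1, and lower by 1.26 ± 0.15 in shControl1 against shControl2. Abca2, a lipid transporter, rose by 0.88 ± 0.10 in shAdar2, and Mfsd1 rose by 1.75 ± 0.26 in shZfr. Of 16 genes for the sorting of lysosomal enzymes, Sort1, which encodes sortilin, a receptor for progranulin and prosaposin, was higher by 0.93 ± 0.10 in shControl1 against shControl2, where 6 were higher and 2 lower. Vps35, a retromer subunit, fell by 0.41 ± 0.09 in shAdar1 and by 1.55 ± 0.09 in shAdar2, and Gga2, a sorting adaptor, rose by 1.55 ± 0.14 in shZfr. The counts were 1 higher and 4 lower in shAdar1, 5 and 4 in shAdar2, and 4 and 3 in shZfr.

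The control genes of the TFEB and mTORC1 axis numbered 19 tested. They were 1 higher and 1 lower in shAdar1, 2 higher and 4 lower in shAdar2, 6 higher and 1 lower in shZfr, and 8 higher and 2 lower in shControl1 against shControl2. Rragd, a GTPase that brings mTORC1 to the lysosome, fell by 0.92 ± 0.11 in shAdar1, and Lamtor5, a subunit of its anchor, was higher by 1.38 ± 0.14 in shControl1. Of 20 autophagy genes, 2 were higher and 4 lower in shAdar1, 6 and 4 in shAdar2, 7 and 5 in shZfr, and 10 and 1 in shControl1 against shControl2. With the shZfr samples summed to 1, the counts in shZfr were 2 higher and 2 lower for the hydrolases, 3 and 2 for the membrane proteins, 3 and 2 for sorting, and 4 and 1 for autophagy, 1 gene of the TFEB and mTORC1 axis was higher, and 7% of all tested genes were called higher and 6.06% lower in that fit. Of the genes named for shZfr, Gm2a, Mfsd1 and Gga2 were still called (adjusted p = 0.00103, 0.00976 and 0.00224, edgeR). Gabarapl2, a ubiquitin-like protein of the autophagosome, rose by 0.74 ± 0.13 in shAdar1 and by 0.90 ± 0.13 in shAdar2.

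**Figure D5:**
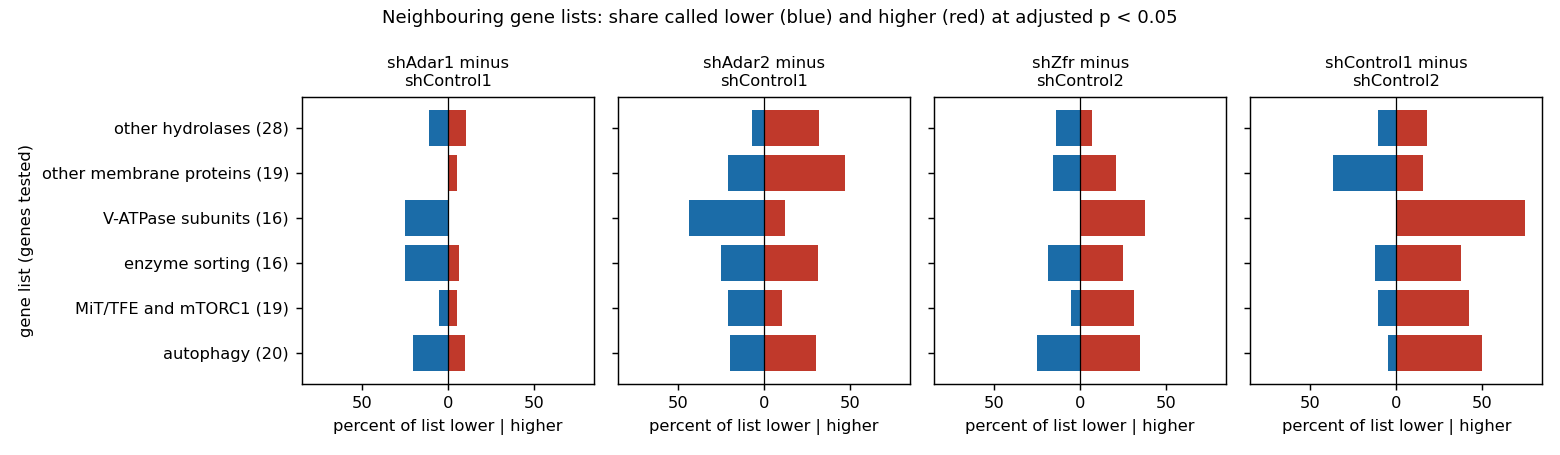
Percent of the tested genes of each neighbouring list called lower (blue, left) or higher (red, right) at an edgeR adjusted p under 0.05, in the same 4 comparisons. The V-ATPase bar has 12 of 16 genes higher in shControl1 against shControl2 and none lower.

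The promoters are shown because the members moved in different directions although many share the CACGTG letters of the TFEB element. RefSeq promoter windows (GRCm38.p6, 250 bases before to 50 after a start) were matched by symbol for 31 of the 34 genes, and Asah1, Ctsb and Npc1 were not matched. The word CACGTG, which reads the same on both strands, was in a window of 13 of the 31 genes (41.9%) and of 8.09% of 27025 genes. The longer TCACGTGA, which contains it, was in 5 (16.1%) against 1.12%. Neither of the 2 Psap windows held either word. Genes with CACGTG were Ctsa, Ctsd, Ctsf, Ctsl, Gaa, Gla, Glb1, Naglu, Arsa, Sgsh, Lamp1, Mcoln1 and Cln3. A match of letters is a description of the window and not a bound site. Capitals mark CACGTG in the windows below, each given 5′ to 3′ for the gene's strand: both starts of Psap, which have none, and 3 genes that rose in shAdar2. These 3 do not stand for all 13 genes with the word. Against shControl1, Gla, with 2 copies, fell in shAdar2, and Lamp1, with 4, was not called. Psap, without the word, was highest in shAdar2.
Psap upstream start, chr10:60277378-60277677, plus strand: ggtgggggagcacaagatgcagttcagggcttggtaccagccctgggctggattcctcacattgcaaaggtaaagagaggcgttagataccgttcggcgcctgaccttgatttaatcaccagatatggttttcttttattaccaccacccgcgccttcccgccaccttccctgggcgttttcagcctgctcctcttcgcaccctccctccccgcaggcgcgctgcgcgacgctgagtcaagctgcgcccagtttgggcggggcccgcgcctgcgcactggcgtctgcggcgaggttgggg
Psap downstream start, chr10:60284211-60284510, plus strand: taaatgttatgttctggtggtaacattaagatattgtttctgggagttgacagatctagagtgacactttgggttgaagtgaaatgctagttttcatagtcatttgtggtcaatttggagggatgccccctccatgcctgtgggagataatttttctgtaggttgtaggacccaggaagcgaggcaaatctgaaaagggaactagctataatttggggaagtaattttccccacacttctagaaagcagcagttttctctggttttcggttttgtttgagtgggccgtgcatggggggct
Mcoln1 promoter, chr8:3500269-3500568, plus strand: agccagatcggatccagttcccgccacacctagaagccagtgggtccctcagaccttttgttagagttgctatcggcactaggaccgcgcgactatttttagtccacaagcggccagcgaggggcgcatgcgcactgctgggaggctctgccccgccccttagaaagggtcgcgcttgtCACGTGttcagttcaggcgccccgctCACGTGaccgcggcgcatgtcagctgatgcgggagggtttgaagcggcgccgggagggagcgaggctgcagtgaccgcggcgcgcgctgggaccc
Ctsf promoter, chr19:4854915-4855214, plus strand: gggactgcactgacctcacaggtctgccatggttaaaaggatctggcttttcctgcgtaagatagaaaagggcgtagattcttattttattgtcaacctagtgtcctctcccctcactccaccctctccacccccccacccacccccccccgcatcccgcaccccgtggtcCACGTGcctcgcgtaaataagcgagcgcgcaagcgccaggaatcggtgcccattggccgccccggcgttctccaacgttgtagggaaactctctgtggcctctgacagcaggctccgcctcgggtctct
Gaa promoter, chr11:119267713-119268012, plus strand: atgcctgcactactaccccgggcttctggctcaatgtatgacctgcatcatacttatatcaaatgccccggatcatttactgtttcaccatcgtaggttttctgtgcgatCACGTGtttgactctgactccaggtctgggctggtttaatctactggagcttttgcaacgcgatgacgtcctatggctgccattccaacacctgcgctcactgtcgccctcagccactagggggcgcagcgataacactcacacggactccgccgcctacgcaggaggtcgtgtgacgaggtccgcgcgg

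In these windows the word begins 79 bases before the start in Ctsf, 140 before it in Gaa, and first 71 before it in Mcoln1, which holds it at 2 places. Of the 13 genes with CACGTG, 5 rose and 1 fell in shAdar2 against shControl1, with a median of 0.32 log2, and of the 17 others with a window, Psap left out, 5 rose and 3 fell, with a median of 0.14, where 23.2% of all tested genes were called higher and 23.2% lower. In shControl1 against shControl2, 4 of the 13 rose and none fell, and 6 of the 17 rose and 1 fell, where 23.2% of all tested genes were called higher and 19.9% lower. In shZfr against shControl2, 3 of the 13 rose and 3 fell, and of 18 with Psap counted 3 rose and 4 fell, where 16.7% were called higher and 14.1% lower. In shAdar1 against shControl1, none of the 13 rose and 2 fell, and of the 17 others 1 rose and 1 fell. There 9.33% of all tested genes were called higher and 6.9% lower. Genes without the word thus stood on both sides in each of these comparisons. Genes with it did so in shZfr, and in shAdar2 through Gla alone, which was called higher in shAdar2 against shControl2. Several of these counts rest on 1 or 2 genes. In shAdar2 against shControl2, 9 of the 13 rose and none fell, with a median of 0.75 log2. Of 18 without the word, Psap counted, 9 rose and 1 fell, with a median of 0.26, where 32.2% of all tested genes were called higher and 27.3% lower. The difference between genes with and without the word was not tested.

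Several members share exon bases with other genes in the GENCODE M21 annotation, so their levels are uncertain to that extent. These are Arsa, Cln3, Ctsa, Ctsb, Ctsd, Ctsl, Ctsz, Galc, Glb1, Grn, Hexa, Lamp1, Npc1, Ppt1 and Sgsh, with overlaps from 10 bases (Ctsz with Nelfcd) to 1742 bases (Ctsl with the antisense gene Gm47123). For genes on opposite strands this depends on whether reads were counted by strand, which no source used here says. Ctsd, Ctsl and Glb1 overlap a gene on the same strand (808 bases with Gm49369, 395 with Gm49230 and 165 with Tmppe). Counting by strand would not by itself separate the reads there. Psap, Gla, Gaa, Laptm4a, Mcoln1 and Tfeb shared no exon bases with another gene there. The remaining members were not called in any of the 4 comparisons: Ctsl, Tpp1, Glb1, Gusb, Naglu, Asah1, Ppt1, Cd63 and Cln3. Among these the widest spread of group means was in Naglu, 2.63 times between the highest and the lowest. Naglu, an N-acetylglucosaminidase of heparan sulfate breakdown, had 3.69 and 4.72 CPM in shAdar1, 6.84 and 6.33 CPM in shAdar2, 2.70 and 2.66 CPM in shZfr, 3.05 and 1.96 CPM in shControl2, and 4.73 and 2.74 CPM in shControl1, and the shAdar2 samples were the highest. Asah1, with the next widest, had 35.8 and 50.5 CPM in shAdar1, 27.2 and 46.7 CPM in shAdar2, 69.7 and 69.6 CPM in shZfr, 53.1 and 64.5 CPM in shControl2, and 58.2 and 55.1 CPM in shControl1, with replicates of shAdar1 and shAdar2 far apart.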

How the data were processed

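RNA depleted of ribosomal RNA was sequenced from 12 libraries of 10 samples. The authors deposited RSEM expected counts and TPM per gene, with an abundance-weighted transcript length, per the file headers. The submitters' processing notes name mm9 as the build and list RSEM 1.2.30, STAR 2.5.4b, SAMtools 1.4, DESeq2 1.20.0 and Trim Galore 0.4.5 without saying what each did. The deposited editing tables were not used here.

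The 3 technical libraries of shAdar2 replicate 1 were summed, and their TPM averaged. Counts were rounded, filtered with filterByExpr and scaled by TMM. All 10 samples entered 1 edgeR fit (version 4.0.16 under R 4.3.3, quasi-likelihood F test), so the 5 groups share an estimate of the spread. Calls are at a Benjamini-Hochberg adjusted p under 0.05 over the 14785 genes tested in the main fit. In alternative fits the adjustment was over the genes tested in each, which were 15381 with the shZfr samples summed to 1. The standard error is the fold change divided by the square root of F, and intervals are at 95%. Means are given ± SD of 2 samples, and p-values measure only the spread between these samples. The check for repeated libraries used genes with at least 20 counts in the pair.

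The members, the gene lists and the tests were chosen with earlier results of these data known. Genes named in full were Psap, Grn, Tfeb and, per comparison, up to 5 called members with the largest increase and up to 5 with the largest decrease. These had to reach 5 CPM in the higher group without overlap between groups. Other members whose values are printed (Ctsf, Mcoln1 and Lamp1 in shAdar2, Man2b1 in shControl1, Arsa and Tpp1 in shAdar1 against shControl2, Naglu and Asah1) were chosen after their values were seen. From each other list up to 2 called genes with the lowest p were named, of which 1 gene is not reported here. Alternatives were a DESeq2 1.42.0 Wald test, edgeR with DESeq2 size factors, no low-count filter, only the compared groups, a replicate block, each sample left out, single technical libraries, TPM in place of CPM and the other control hairpin. A crossed replicate block and the 2 shZfr samples summed to 1 were added after seeing the data. Marker sums not given in the results ran from 9.57 to 50.4 TPM for endothelial, mural and fibroblast cells.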

Additional observations from a re-analysis of the deposited data

How the results depend on the processing

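The counts of called members changed by over 1.5 times under these settings. In shAdar1 against shControl1, 1 higher became 0 with technical library 2 or 3 of shAdar2 replicate 1 alone. Of all tested genes 2400 were called in either direction in the main fit, and 1928 and 1981 with these libraries. The call was also lost with the 2 shZfr samples summed to 1. Against the other control hairpin 1 higher became 6, where the share of all tested genes went from 9.33% to 19.3%. The 3 lower became 6 with DESeq2 and 5 with its size factors in edgeR, where 2911 and 2392 of all tested genes were called in either direction. In shAdar2 against shControl1, 10 higher became 17 with the other control hairpin, where the share of all tested genes went from 23.2% to 32.2%. The 5 lower became 3 there, where the share went from 23.2% to 27.3%. They became 2 with only the compared groups, where 4047 in place of 6856 of all tested genes were called in either direction. In shZfr against shControl2, fewer than 8 members (Psap counted) were called lower with the shZfr samples summed to 1. Fewer of all tested genes were called lower in that fit too. In shControl1 against shControl2, 2 lower became 4 with DESeq2 and 6 with only the compared groups. There 6333 and 7537 in place of 6367 of all tested genes were called in either direction. On TPM, 1 member in place of 2 was lowest in both shControl1 samples, where 8.12% in place of 8.21% of all tested genes were. The cause of these shifts was not tested.

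Leaving out each sample in turn gave 0 to 1 higher and 0 to 3 lower members in shAdar1, 7 to 11 and 2 to 6 in shAdar2, 3 to 5 and 2 to 4 in shZfr, 3 to 7 and 1 to 1 in shControl1 against shControl2, 2 to 3 members lowest in shControl1, and 3.40 to 3.88 for the ratio of Psap outside shControl1 to Psap in it. With the other control hairpin, 10 of the named changes had the other sign, all given in log2. In shAdar1 these were Galc (−0.22), Gaa (0.30), Ctsd (0.0302) and Scarb2 (0.0532). In shAdar2 they were Galc (−0.0613), Gla (1.23) and Scarb2 (0.039), and in shZfr Gla (−0.40), Hexa (−0.0313) and Psap (1.86). Of these, Gla in shAdar2 was called in the other direction (adjusted p = 0.00177, edgeR), and Psap is given without a test. The others were not called there, so those calls were lost and were not shown to turn. No other alternative gave a named call the other sign.

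The correlation of same-numbered deviations ran from −0.12 (shAdar1 with shControl1) to 0.28 (shAdar1 with shAdar2). It had no common sign, so the main fit held no pairing, although these correlations cannot exclude one. With the replicate block, members called higher and lower were 1 and 3 in shAdar1, 11 and 6 in shAdar2, 6 and 8 in shZfr, and 10 and 2 in shControl1 against shControl2. In the same order, 2342, 6827, 4564 and 6441 of all tested genes were called in either direction. The main fit had 2400, 6856, 4542 and 6367. A crossed replicate block in shAdar1 against shControl1 gave 1 higher and 5 lower, where 2765 of all tested genes were called in either direction. With 2 samples per group and members such as Tfeb at 11 to 28 reads in single libraries outside shAdar2, small differences of low genes were not detectable at this depth.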
